A study of Mus musculus with 44 samples.

Results

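The nuclear-encoded subunits of the respiratory chain were followed across plasma cells sorted from mouse bone marrow and spleen. Members were the rows of the deposited gene table named as subunits of complexes I to V (gene names beginning Nduf with a subunit letter, Sdha to Sdhd, Uqcr, Cox4 to Cox8 and Atp5), with a mean of at least 1 CPM (a gene's counts as its share of the library total). This threshold, and the levels of subunit genes under it, use unscaled totals of all 44 libraries. Other CPM values use scaled totals. Of 54960 gene rows, 104 carried such a name. Among them 13 were pseudogenes and 12 more lay under 1 CPM, which left 79 genes: 37 of complex I, 4 of complex II, 8 of complex III, 13 of complex IV and 17 of complex V. All 79 passed the filter on low counts and were tested. The faintest members were Ndufb4c (5.92 CPM) and Atp5k (14.9 CPM), while Ndufa4l2 (0.958 CPM) and Cox4i2 (0.768 CPM) fell just outside the threshold.

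The cells were CD138high B220- plasma cells of BEC-YFP mice, all treated with tamoxifen and sorted as YFP+ (labelled LLPC) or YFP- (labelled Bulk PC). What drives the YFP mark is not given in the sources used here, and YFP- cells come from the same tamoxifen-treated animals, so they are not an untreated control. Mice labelled 24 weeks old (middle-aged) were taken at day 5 and at day 90 after tamoxifen, and mice labelled 6 to 8 weeks old (young) at day 90. The labels do not say whether these ages are at tamoxifen or at collection. A mouse at day 90 is older than 8 weeks, so the young label cannot be the age at collection. If 24 weeks is also the age at tamoxifen, middle-aged mice were older at collection at day 90 than at day 5. Day-90 mice are named by a code in the title and day-5 mice by the number that ends it, with each number taken as 1 mouse. Day-90 titles end in such a number as well. Each of the 12 groups is 1 age, day, organ and sort, with 3 libraries in 5 groups and 4 in 7. They make 43 libraries. A further library, whose title and cell type label disagree, was kept out of every comparison. In all, the 44 libraries come from 13 mice, and their totals ranged from 6643295 to 12663103 counts.

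Complexes I to IV pass electrons from NADH and succinate to oxygen. Complexes I, III and IV pump protons across the inner mitochondrial membrane, and complex V, the ATP synthase, uses the proton gradient to make ATP. Core subunits of most complexes are encoded by mitochondrial DNA and the remainder, described here, by nuclear genes whose products are imported. Plasma cells secrete antibody at a high rate, and long-lived plasma cells are known to rely on mitochondrial respiration. Several complex IV subunits have tissue isoforms, such as Cox6a1, found in most tissues, and Cox6a2, known from heart and skeletal muscle.

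The libraries held plasma cell transcripts throughout: Sdc1, which encodes CD138, averaged 574 CPM (148 to 883), Xbp1 11325 CPM and Irf4 201 CPM. Defining genes of natural killer cells were nearly absent (Ncr1 0.00794 and Klrb1c 0.00639 CPM on average), as was the B cell factor Pax5 (0.0624 CPM). Transcripts of other cells reached high levels in single libraries: Lyz2 of monocytes and macrophages 1703 CPM and C1qb 550 CPM, Ngp of neutrophil precursors 1169 CPM, the globin gene Hbb-bs 1072 CPM and Mcpt8 of basophils 543 CPM. In bulk samples fewer cells of a type and less RNA per cell cannot be told apart. The 3 libraries lowest in Sdc1 stood apart: day-5 spleen YFP- cells of mouse 07-26 (148 CPM) and day-90 YFP- cells of middle-aged mouse M2 from spleen (190 CPM) and marrow (232 CPM). They also had the highest scaled sums of the 79 genes, so results are given with and without them where they differ. As a share of unscaled counts the 79 genes made up 2.12%, 2.05% and 1.54% in these libraries, in that order. The 1.54% of the marrow library lay below some other libraries, such as the 1.72% in day-5 spleen YFP- cells of mouse 09-01.

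Promoter windows from RefSeq (GRCm38.p6, 250 bases before to 50 after the start of the gene) were found for 65 of the 79 genes, as 70 windows. Those without one include Atp5a1, Atp5mpl, Cox4i1, Cox6a2, Cox6c, Ndufa2, Ndufb4c, Ndufb9, Ndufs1, Sdhc, Uqcrb, Uqcrc2 and Uqcrq. The 250 bases before the start are shown for 3 genes that the results turn on. They are Ndufa4, which fell in YFP+ spleen cells, Cox6a1, the partner isoform of Cox6a2, and Ndufa1, the complex I gene with the highest level per kb. Capitals mark 4 motifs searched on both strands: GCATGCGC, the core bound by NRF1, CCGGAAG of ETS factors such as GABP, AAGATGGC of YY1, and CACGTG of Myc-type factors.
Ndufa4 (chr6:11907451-11907700, minus strand): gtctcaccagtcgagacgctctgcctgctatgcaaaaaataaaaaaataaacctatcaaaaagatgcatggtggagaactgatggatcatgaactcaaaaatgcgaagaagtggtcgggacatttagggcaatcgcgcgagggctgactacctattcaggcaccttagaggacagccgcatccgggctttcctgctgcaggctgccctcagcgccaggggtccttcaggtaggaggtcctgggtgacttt
Cox6a1 (chr5:115348959-115349208, minus strand): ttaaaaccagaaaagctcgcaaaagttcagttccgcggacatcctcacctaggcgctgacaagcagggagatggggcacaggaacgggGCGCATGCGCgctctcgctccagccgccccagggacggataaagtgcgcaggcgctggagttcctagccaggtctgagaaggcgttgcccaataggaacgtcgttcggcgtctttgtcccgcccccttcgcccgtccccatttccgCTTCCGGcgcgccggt
Ndufa1 (chrX:37191239-37191488, minus strand): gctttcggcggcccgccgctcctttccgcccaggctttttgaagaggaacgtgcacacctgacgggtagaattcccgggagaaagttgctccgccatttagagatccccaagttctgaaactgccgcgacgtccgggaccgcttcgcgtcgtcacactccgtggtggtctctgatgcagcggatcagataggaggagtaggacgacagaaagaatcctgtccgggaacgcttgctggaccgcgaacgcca
The Cox6a1 window holds 2 overlapping NRF1 cores, starting 162 and 160 bases before the start of the gene, and an ETS match starting 16 bases before it. None of the 4 motifs lies in the stretches shown for Ndufa4 and Ndufa1. Over full windows, 10 of the 70 member windows (14.3%) held the NRF1 core, against 2.71% of all 32851 windows. The YY1 letters stood in 14.3% against 2.75%, the ETS letters in 24.3% against 8.86%, and the Myc-type letters in 7 of 70 against 7.15%. A match describes the letters and not binding.

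All 79 genes were present in every group, but their levels differed widely. Per kb of gene model, the most abundant member of complex I was Ndufa1 (952 CPM per kb), a small membrane subunit, and the least abundant Ndufb4c (15.2). In complex II, Sdhb, the iron-sulfur subunit, led with 334 CPM per kb and the membrane anchor Sdhc was lowest with 30.3. Complex III ran from Uqcr11 (375) to Uqcr10 (69.8), both small subunits. In complex IV, Cox4i1, the ubiquitous form of subunit 4, was highest with 643 CPM per kb and Cox6a2 lowest with 37.9. Complex V ran from the catalytic subunit Atp5b (569) to Atp5md (9.20). The Atp5md model is 2733 nt long, and without division by length Atp5k was lower (14.9 against 25.1 CPM). For 9 members over 50% of the deposited values are not whole, as arises when reads are divided among similar sequences (Ndufa12, Ndufb4, Ndufb4c, Ndufb6, Ndufb9, Ndufs3, Atp5g1, Atp5g2 and Atp5l). Their levels are uncertain.

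**Figure D1:**
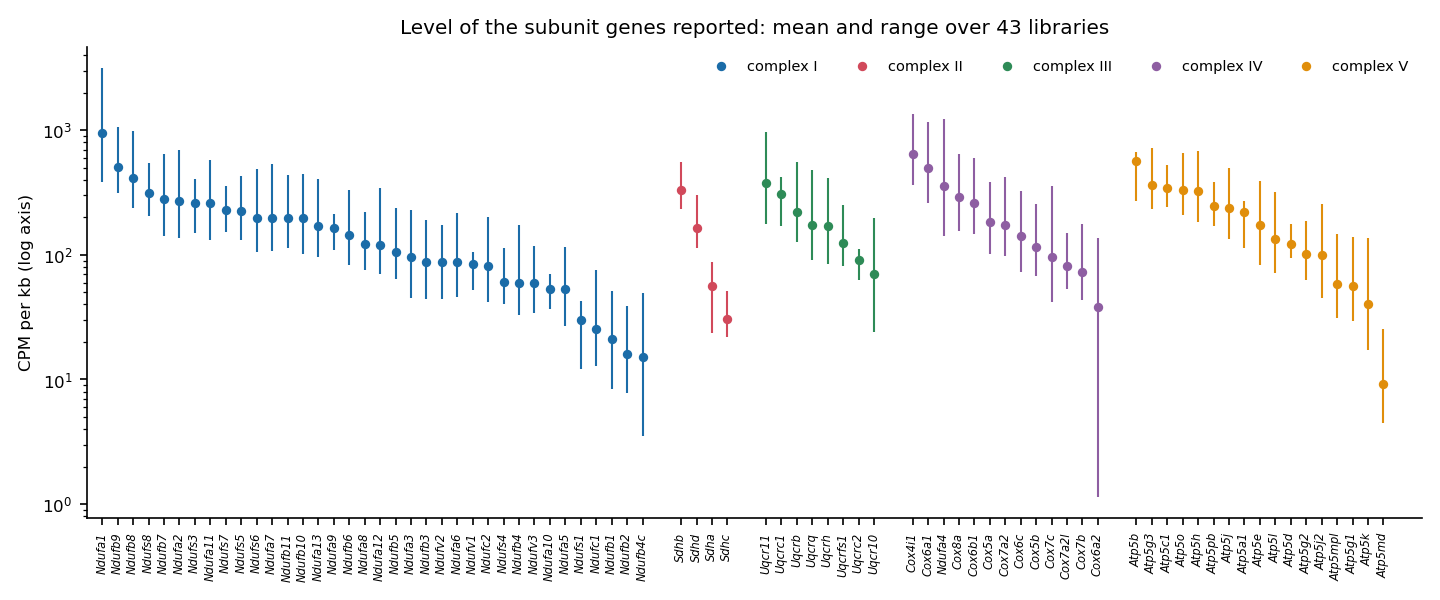
Level of the subunit genes reported in CPM per kb of gene model (log axis), grouped by complex; the point is the mean over 43 libraries and the line runs from the lowest to the highest library. Cox6a2 spans the widest range of all members, from 0.778 to 92.1 CPM per library, a 118-fold range.

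For the isoform families, the ubiquitous forms were measured at high levels and the tissue-restricted forms at or near 0. Cox4i2, the lung form, averaged 0.768 CPM against 492 for Cox4i1. Cox6b2, known from testis, averaged 0.275 CPM against 163 for Cox6b1. The heart and muscle form Cox7a1 stood at 0.0383 CPM, beside 114 for Cox7a2 and 87.4 for the supercomplex factor Cox7a2l. Cox7b2 averaged 0.00495 CPM against 72.3 for Cox7b, and Cox8b and Cox8c were at 0 in every library, against 161 for Cox8a. Ndufa4l2, the hypoxia-linked relative of Ndufa4, averaged 0.958 CPM against 218. Of the 3 genes for the c subunit of ATP synthase, Atp5g3 made up 69.6% of their summed level per kb, Atp5g2 19.7% and Atp5g1 10.7%. These shares rest on the model lengths, 723 nt for Atp5g3 and 4715 nt for Atp5g1. Without division by length Atp5g3 (264 CPM) and Atp5g1 (267 CPM) were at nearly the same level. Cox6a2 is the exception among the muscle isoforms. It averaged 25.8 CPM, and its share of the Cox6a level per kb ranged over libraries from 0.422% to 25.3%.

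Spleen cells at day 90 gave the calls among these genes. Cox6a2 rose and Ndufa4 fell in YFP+ against YFP- cells, and the other 77 did not pass (7 and 8 libraries, with equal weight for each age). That is 2.53% of the 79 genes, against 3.53% of all 12457 genes tested, so the share called was not above the background. With the mouse as a block, which uses the fact that YFP+ and YFP- libraries come from the same animals, the same number of members was called and the background was 5.99%. Passing means an adjusted p under 0.05 (edgeR's quasi-likelihood test, Benjamini-Hochberg over all genes tested), and changes are log2 ± SE.

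Cox6a2 (ENSMUSG00000030785, chr7:128205435-128206387, minus strand, GRCm38) was at 31.3, 38.3, 24.4 and 71.6 CPM in the 4 YFP+ spleen libraries of middle-aged mice at day 90. The 4 YFP- libraries had 14.8, 25.1, 16.4 and 23.0 CPM. Only the lowest YFP+ value lay under the highest YFP- value. In young mice the 3 YFP+ libraries had 91.9, 92.1 and 52.7 CPM, above all 4 YFP- libraries (15.3 to 27.8 CPM). Averaged over the ages the level was 60.2 against 20.0 CPM, a log2 change of 1.51 ± 0.38 (adjusted p = 0.0152). Within mice it was higher in YFP+ cells of 6 of 6 animals, and Cox6a2 was the only member with that pattern. How many of all genes have that pattern was not counted. With the mouse as a block the change was 1.60 ± 0.29 (adjusted p = 0.000508). By age, it did not pass in middle-aged (1.05 ± 0.52, adjusted p = 0.505) or young mice alone (1.96 ± 0.55, adjusted p = 0.0819), and the difference between the ages was -0.90 ± 0.75 (adjusted p = 1.00).

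Cox6a1, the other isoform, did not pass in these cells, at 261 against 300 CPM (-0.17 ± 0.22, adjusted p = 0.817). The share of Cox6a2 in the Cox6a level per kb moved with the sort. It was 22.5% ± 2.95 (SD, n = 3) in YFP+ and 7.10% ± 1.87 (n = 4) in YFP- spleen cells of young mice, with no overlap. In middle-aged mice it was 10.8% ± 5.71 (n = 4) and 5.06% ± 3.31 (n = 4), with overlap. Cox6a1 thus remained the more abundant isoform in every library, with at least 74.7% of the family level per kb.

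Ndufa4 (ENSMUSG00000029632, chr6:11900292-11907497, minus strand, GRCm38), a subunit once assigned to complex I and now placed in complex IV, was at 131, 204, 122 and 126 CPM in YFP+ spleen cells of middle-aged mice. Their YFP- libraries had 692, 284, 126 and 326 CPM. In young mice the YFP+ values were 104, 86.0 and 135 CPM, and the YFP- values 237, 166, 286 and 129. The groups overlapped at their edges in both ages. The mean was 127 against 281 CPM (-1.11 ± 0.27, adjusted p = 0.0124). Ndufa4 was lower in YFP+ cells of 6 of 6 mice and lay under the median change of the 79 genes in each of them. No other member was lower in every mouse, and this was likewise not counted over all genes. The call ended without the YFP- spleen library of middle-aged mouse M2 (-0.81, adjusted p = 0.0824), which held the 692 CPM, and with the YFP+ sort of young mouse F7 left out (-1.04, adjusted p = 0.0542). Without all 3 libraries lowest in Sdc1 it passed (-0.83 ± 0.20, adjusted p = 0.0150). It did not pass in middle-aged (-1.29 ± 0.37, adjusted p = 0.0908) or young mice alone (-0.92 ± 0.40, adjusted p = 0.412).

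**Figure D2:**
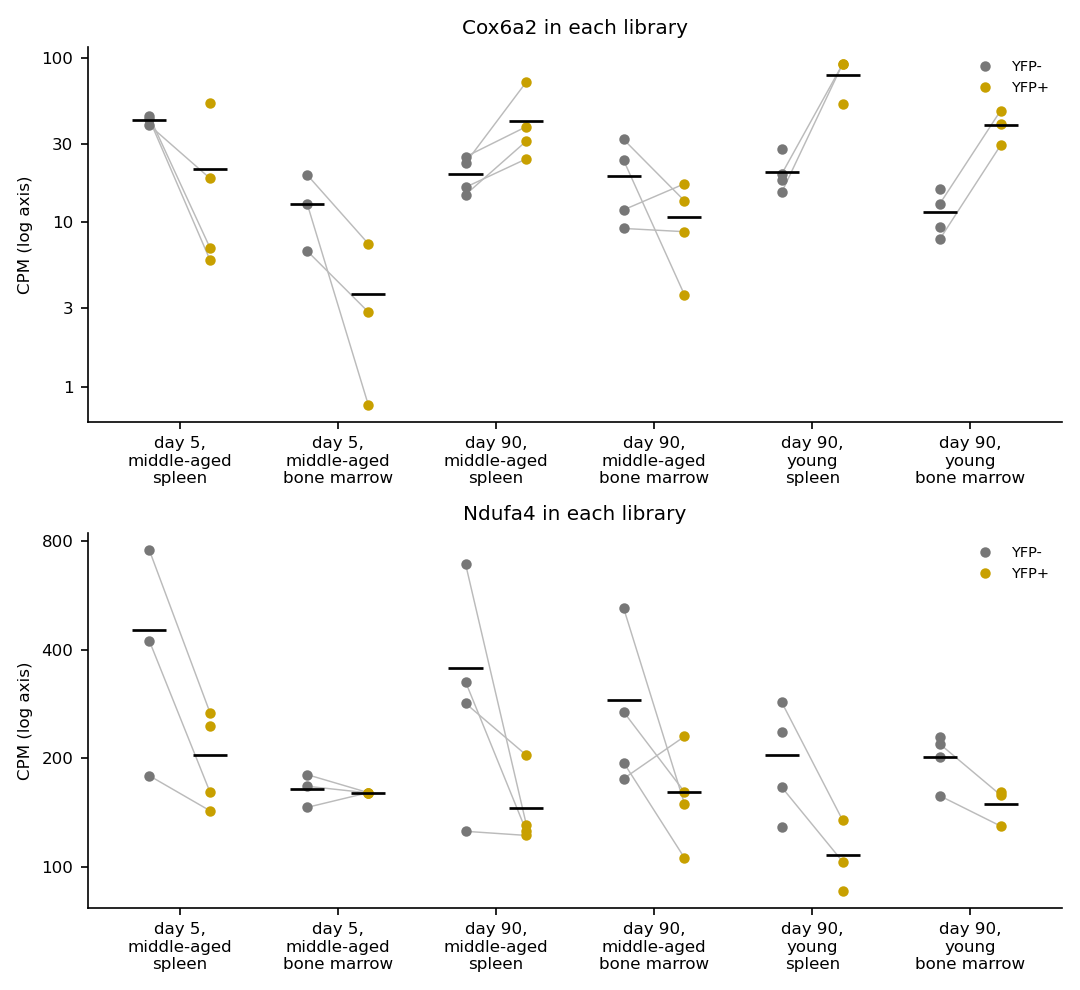
Cox6a2 and Ndufa4 in each library, in CPM on a log axis, by day, age, organ and sort; black bars are group means and grey lines join the YFP- and YFP+ libraries of 1 mouse. At day 90 in the spleen every line rises for Cox6a2 (means 60.2 against 20.0 CPM) and every line falls for Ndufa4 (127 against 281 CPM).

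Markers of other cells also differed between these spleen sorts. The summed level of 12 cell cycle genes was 133 to 190 CPM in YFP+ libraries and 174 to 546 in YFP- libraries, and 7 of the 12 fell, among them the mitotic kinases Cdk1 (-3.64 ± 0.67, adjusted p = 0.000581) and Aurkb (-3.96 ± 0.67, adjusted p = 0.000154). The 8 natural killer genes summed to 4.69 to 30.3 CPM in YFP+ and 10.6 to 87.3 CPM in YFP- libraries. Of the 4 tested, the granzyme gene Gzma fell, while Ncr1 and Klrb1c were nearly absent as given above. The 10 neutrophil and precursor genes summed to 2.90 to 69.1 CPM and 1.39 to 508 CPM, and 1 of 9 tested fell. The 6 plasmacytoid dendritic cell genes, with Klk1 nearly absent (0.0123 CPM), summed to 299 to 405 CPM and 307 to 500 CPM, and 0 of 5 tested passed. The 8 eosinophil, basophil and mast cell genes separated the sorts, with sums of 1278 to 3081 CPM in YFP+ and 453 to 1123 CPM in YFP- libraries. Prg2, which makes up most of that sum, rose (1.2625 ± 0.29, adjusted p = 0.00759), while the eosinophil peroxidase gene Epx was nearly absent (0.00265 CPM on average). Monocyte and macrophage sums were 185 to 536 CPM in YFP+ and 36.5 to 664 CPM in YFP- libraries, and erythroid sums 1.90 to 3472 CPM and 2.27 to 208 CPM, with no call in either list. Of 7 B cell genes tested 1 fell, and the median change of that list was 0.033. Cd93, a surface protein of plasma cells, rose (1.14 ± 0.18, adjusted p = 6.6e-05). It was the only 1 of 10 plasma cell genes called, and the median change of that list was -0.0065. The part of these in the changes of Cox6a2 and Ndufa4 was not tested.

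Marrow cells at day 90 gave no call among the 79 genes by edgeR (2 at an unadjusted p under 0.05) and none by DESeq2's Wald test, against 0.458% of all genes. Ndufa4 averaged 156 CPM in the YFP+ sort and 246 CPM in the YFP- sort (-0.66 ± 0.27, adjusted p = 0.437), and lower in 5 of 6 mice. Cox6a2 averaged 24.97 and 15.4 CPM (0.45 ± 0.38, adjusted p = 0.823), with opposite signs in the ages. In young marrow the YFP+ libraries had 29.5, 39.9 and 48.0 CPM and the YFP- libraries 7.92, 9.38, 13.0 and 16.0, with no overlap. In middle-aged marrow the YFP+ libraries had 3.62, 8.79, 13.5 and 17.2 CPM and the YFP- libraries 9.19, 11.9, 23.9 and 32.0, which overlap. The difference of the contrast between ages was -2.59 ± 0.77, which did not pass (adjusted p = 1.00, and 0.104 with the mouse as a block). Ndufa1 was at 343 against 553 CPM in the marrow (-0.68 ± 0.30, adjusted p = 0.489) and at 267 against 458 CPM in the spleen (-0.70 ± 0.30, adjusted p = 0.222), and passed in neither. The difference of the YFP contrast between the organs passed for none of the 79 genes by edgeR (0 at an unadjusted p under 0.05, DESeq2 0, background 0%). For Cox6a2 that difference was -1.06 ± 0.54 (adjusted p = 1.00).

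At day 5 Cox6a2 was lower in YFP+ than in YFP- cells of every mouse that gave both sorts. In the spleen YFP- libraries it was at 39.1, 42.6 and 44.2 CPM. The YFP+ libraries of the same 3 mice had 18.5, 5.89 and 6.99 CPM, each below its partner, while the YFP+ library of mouse 09-15, which has no YFP- partner, had 53.7 CPM. In the marrow the YFP+ values were 0.778, 2.86 and 7.43 CPM and the YFP- values 12.9, 6.68 and 19.4, again lower in 3 of 3 mice. Neither difference passed (spleen -0.99 ± 0.55, adjusted p = 0.379; marrow -1.83 ± 0.64, adjusted p = 1.00). With the mouse as a block, the spleen difference passed (-2.24 ± 0.45, adjusted p = 0.0352) and the marrow difference did not (-1.94 ± 0.48, adjusted p = 0.454). Without the library of mouse 09-15 the unblocked spleen value was -2.004 (adjusted p = 0.0552). In that library the erythroid list summed to 480 CPM, against 6.00 to 9.78 CPM in the other 3, and the 79 genes to 16685 CPM against 9999.7 to 12335; whether these bear on its Cox6a2 level was not tested.

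The YFP contrast of Cox6a2 in the spleen of middle-aged mice was thus higher by 2.04 ± 0.75 on the log2 scale at day 90 than at day 5. It did not pass without the block (adjusted p = 0.520) and passed with it (3.22 ± 0.58, adjusted p = 0.00421). That was the only member called there with the block, against 0.731% of all genes; without it no member was called, by edgeR (1 at an unadjusted p under 0.05) or DESeq2, against 0.0562%. In the marrow the same difference was 0.98 ± 0.82 for Cox6a2 (adjusted p = 1.00), with 0 members called by either tool (0 at an unadjusted p under 0.05) against 0.0161%. Day-5 and day-90 libraries come from different mice, which may also differ in age at collection. These contrasts share the day-90 libraries with those above. For Ndufa4 the YFP contrast at day 5 was -1.15 ± 0.39 in the spleen (adjusted p = 0.241) and -0.03 ± 0.42 in the marrow (adjusted p = 1.00). Its spleen values were 143, 161, 246 and 267 CPM in YFP+ and 179, 424 and 756 CPM in YFP- cells, and without the YFP- library of 179 CPM (mouse 09-29) the spleen contrast passed (-1.52, adjusted p = 0.0104).

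As a whole, the 79 genes lay lower in YFP+ than in YFP- spleen cells at day 5, without a call (edgeR 0 members and 0% of all genes; DESeq2 0 members). Their median log2 change was -0.63, against 0.00 over all genes tested. Of the 79, 42 had an unadjusted p under 0.05, against 1865 of all 12457 genes tested. The median was -0.30 without the 3 libraries lowest in Sdc1. Within mice, 52 of the 79 were lower in YFP+ cells of 3 of 3 animals and 4 higher. This count was not made over all genes. With the mouse as a block, 13 passed, against 3.66% of all genes, and none passed when the 3 libraries lowest in Sdc1 were also left out. Of these 13, 12 fell: the complex I subunits Ndufa7 and Ndufb3, the small complex III subunits Uqcr11, Uqcrb and Uqcrh, Cox6a1 and Cox6a2 of complex IV, and Atp5g2, Atp5g3, Atp5h, Atp5j2 and Atp5l of the ATP synthase. In that fit Uqcr11 changed by -1.34 ± 0.37, Uqcrh by -1.25 ± 0.31 and Cox6a1 by -1.13 ± 0.31 (adjusted p = 0.0449, 0.0440 and 0.0449). Ndufs1, the large iron-sulfur subunit of complex I, rose (0.82 ± 0.22, adjusted p = 0.0449). Without the YFP- spleen library of mouse 09-29, the unblocked test called 34 members, 33 of them lower (median -0.92), against 12.8% of all genes.

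The size of the change ran with the complex and the length of the gene model. Median changes in that contrast were -0.63 for complex I, -0.74 for complex III, -0.70 for complex IV and -0.59 for complex V, while complex II, with longer transcripts, had -0.12. All 30 members with models under 700 nt were negative (median -0.71), as were all 29 of 700 nt or more but under 1400 nt (median -0.60). Of the 20 members of 1400 nt or longer 12 were negative (median -0.11). Genes outside the respiratory chain showed the same order, with medians of -0.60 (380 genes under 700 nt), -0.34 (1671 genes) and 0.10 (10299 genes). Sdc1 in these libraries was at 148 to 586 CPM in YFP- and 327 to 883 CPM in YFP+ cells. Monocyte and macrophage genes summed to 149 to 1416 CPM in YFP- and 26.3 to 269 CPM in YFP+ cells, and erythroid genes to 13.4 to 2584 CPM and 6.00 to 480 CPM. Both highest values are those of the YFP- library of mouse 07-26, whose YFP+ partner had 26.3 and 6.00 CPM. The median changes of these lists were -4.08 and -2.72, and that of the cell cycle genes -1.15, with 0 calls by edgeR in each. The part of transcript length or other cells in the changes of the 79 genes was not tested.

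**Figure D3:**
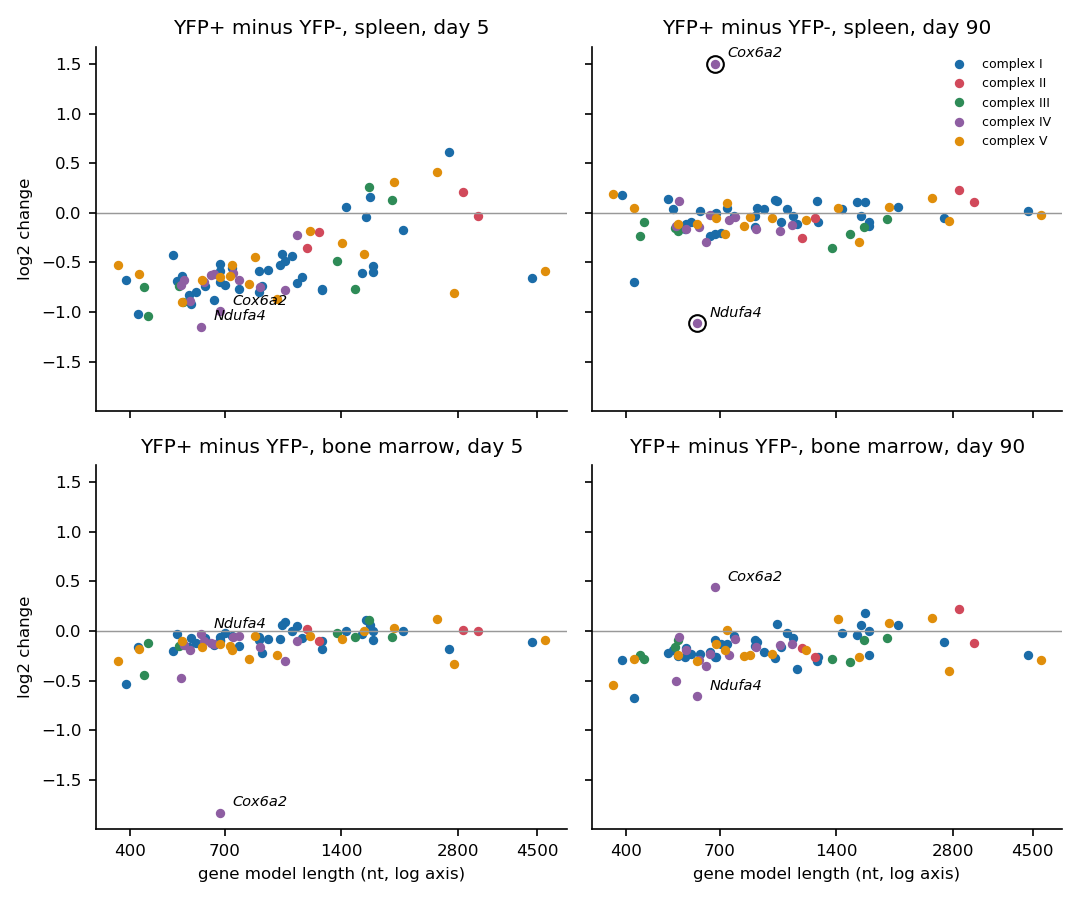
Log2 change of each of the 79 genes, YFP+ minus YFP-, against the length of its gene model (log axis), in spleen and marrow at days 5 and 90; colours give the complex and black rings the genes that passed. In day-5 spleen the short members lie below 0 (median -0.71 under 700 nt), and at day 90 in spleen Cox6a2 and Ndufa4 stand apart from the rest.

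In day-5 marrow no call was made between the sorts: 0 members passed in edgeR (1 at an unadjusted p under 0.05) or DESeq2, the background was 0% and the members' median was -0.10. Within mice, 36 of 79 were lower in YFP+ cells of 3 of 3 animals and 3 higher, a count not made over all genes. At day 90 the members' medians were -0.19 in marrow and -0.05 in spleen (-0.05 and 0.07 without the 3 libraries lowest in Sdc1). The difference of the YFP contrast between the ages passed for 0 members by edgeR in marrow (1 at an unadjusted p under 0.05) and spleen (0), and for 0 by DESeq2, with backgrounds of 0% each.

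Between marrow and spleen the largest difference for Cox6a2 at day 90 was in YFP+ cells. There it averaged 24.97 CPM in marrow and 60.2 in spleen, a change of -1.49 ± 0.40 that did not pass (adjusted p = 0.133). With the mouse as a block it passed (-1.43 ± 0.29, adjusted p = 0.00580) and was the only member to do so, against 1.61% of all genes. DESeq2's Wald test also called it (adjusted p = 0.0200). No member passed in the unblocked edgeR fit (1 at an unadjusted p under 0.05), with a background of 0.193%, and the median over the 79 genes was 0.13. At day 5 the same organ difference in YFP+ cells was -2.51 ± 0.63 for Cox6a2 (adjusted p = 1.00). There edgeR called 0 members (2 at an unadjusted p under 0.05), against 0% of all genes. DESeq2 called 1 member, and its share over all genes is not given here for either day. The Cox6a2 level at day 5 was 0.778 to 7.43 CPM in marrow and 5.89 to 53.7 CPM in spleen.

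In YFP- cells the members' median was lower in marrow than in spleen at day 5 and higher at day 90, without a call by edgeR. At day 5 the summed level of the 79 genes was 11336 ± 1528 CPM in marrow and 17551 ± 5064 CPM in spleen (SD, n = 3 each). It was lower in marrow in 2 of the 3 mice, while mouse 09-29 had 13078 CPM in marrow and 12382 CPM in spleen. The median log2 change, marrow minus spleen, was -0.93 (-0.58 without the 3 libraries lowest in Sdc1). Of the 79, 59 had an unadjusted p under 0.05, against 2185 of all 12457 genes tested. No member passed by edgeR, with a background of 0.00803%, and 9 passed by DESeq2, against 1.23% of all genes. Without the spleen library of mouse 09-29 edgeR called 55, 54 of them lower in marrow, against 15.3% of all genes. Monocyte and macrophage sums were 74.3 to 208 CPM in marrow and 149 to 1416 CPM in spleen, and neutrophil sums 1.77 to 581 CPM and 0.529 to 18.3 CPM; their part was not tested. Again the medians ran with model length: -1.06 under 700 nt, -0.85 between 700 and 1400 nt and -0.20 at 1400 nt or longer, beside -0.89, -0.41 and 0.13 for other genes. At day 90 the members' median in YFP- cells was 0.23, and 0 passed by edgeR (6 at an unadjusted p under 0.05) or DESeq2, against 0.136%. Of all 12457 genes tested, 1078 had an unadjusted p under 0.05 there.

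Over time, the members' median was higher at day 90 than at day 5 in marrow of middle-aged mice. It was 0.58 in YFP+ cells (28 of 79 at an unadjusted p under 0.05) and 0.80 in YFP- cells (57 of 79), with 0 members called by edgeR or DESeq2 in either and backgrounds of 0.136% and 0%. Of all 12457 genes tested, 1604 and 1076 had an unadjusted p under 0.05. If the 24-week label is the age at tamoxifen, the day-90 mice were also older at collection, and day and age cannot be told apart. The sums were 10976 ± 1581 CPM at day 5 (n = 3) and 14335 ± 2261 CPM at day 90 (n = 4) in YFP+ marrow cells, and 11336 ± 1528 and 16827 ± 5290 CPM in YFP- cells. Without the 3 libraries lowest in Sdc1 the medians were 0.61 and 0.54. In YFP+ marrow cells neutrophil sums were 198 to 2675 CPM at day 90 and 1.94 to 103 CPM at day 5, and monocyte and macrophage sums 474 to 1851 CPM and 35.4 to 190 CPM, with no overlap in either. Erythroid sums, which also did not overlap, were 13.5 to 3093 CPM and 2.34 to 8.47 CPM. In YFP- marrow cells the monocyte and macrophage sums were 199 to 1100 CPM at day 90 and 74.3 to 208 CPM at day 5, with overlap. No gene of these 3 lists passed in either contrast, and their part in the members' change was not tested. In spleen the medians of the 79 genes were 0.19 in YFP+ cells (0 members at an unadjusted p under 0.05) and -0.23 in YFP- cells (1). There 0 members were called by either tool, with backgrounds of 0.361% and 0%. Cox6a2 in YFP+ marrow cells was at 10.8 CPM at day 90 and 3.69 CPM at day 5 (1.54 ± 0.62, adjusted p = 0.288).

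By age, the median was higher in middle-aged than in young mice at day 90 in all 4 comparisons, without a call by edgeR or DESeq2. It was 0.15 and 0.39 in YFP+ cells of marrow and spleen (1 and 5 members at an unadjusted p under 0.05), with backgrounds of 0.0241% and 0.0321%. In YFP- cells it was 0.46 and 0.61 (6 and 48 members), with backgrounds of 0% each. Of all 12457 genes tested, 681 and 592 had an unadjusted p under 0.05 in YFP+ cells, and 364 and 1634 in YFP- cells. Without the 3 libraries lowest in Sdc1, 2 of which are middle-aged YFP- libraries, the YFP- medians were 0.15 and 0.36. In the spleen, leaving out the YFP- library of middle-aged mouse F15 gave 15 calls, all higher, against 2.21% of all genes. Sums in YFP- spleen cells were 10168, 15416, 15760 and 20875 CPM in middle-aged mice and 10911 to 12447 CPM in young mice. Cox6a2 went the other way in YFP+ cells, at 10.8 CPM in middle-aged and 39.2 CPM in young marrow (-1.85 ± 0.56, adjusted p = 0.636) and at 41.4 and 78.9 CPM in spleen (-0.94 ± 0.54, adjusted p = 0.970). The ranges did not overlap in marrow (3.62 to 17.2 and 29.5 to 48.0 CPM). Monocyte and macrophage sums in YFP+ marrow cells were 474 to 1851 CPM in middle-aged and 99.65 to 379 CPM in young mice. In YFP+ spleen cells they were 300 to 536 and 185 to 229 CPM, with no overlap in either organ. In YFP- cells they overlapped in both organs. No gene of that list passed by age, and its part was not tested. All young YFP+ mice carry F codes, while the middle-aged mice carry M and F codes, so age is mixed with the code here. In middle-aged marrow the M-coded mice had 3.62 and 8.79 CPM and the F-coded mice 13.5 and 17.2 CPM. The titles of these M-coded mice end in 09-15 and those of the F-coded mice in 09-17, so code and number cannot be told apart. Young YFP+ titles end in 09-17, 09-29 and 10-05. The part of the code or the number was not tested.

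**Figure D4:**
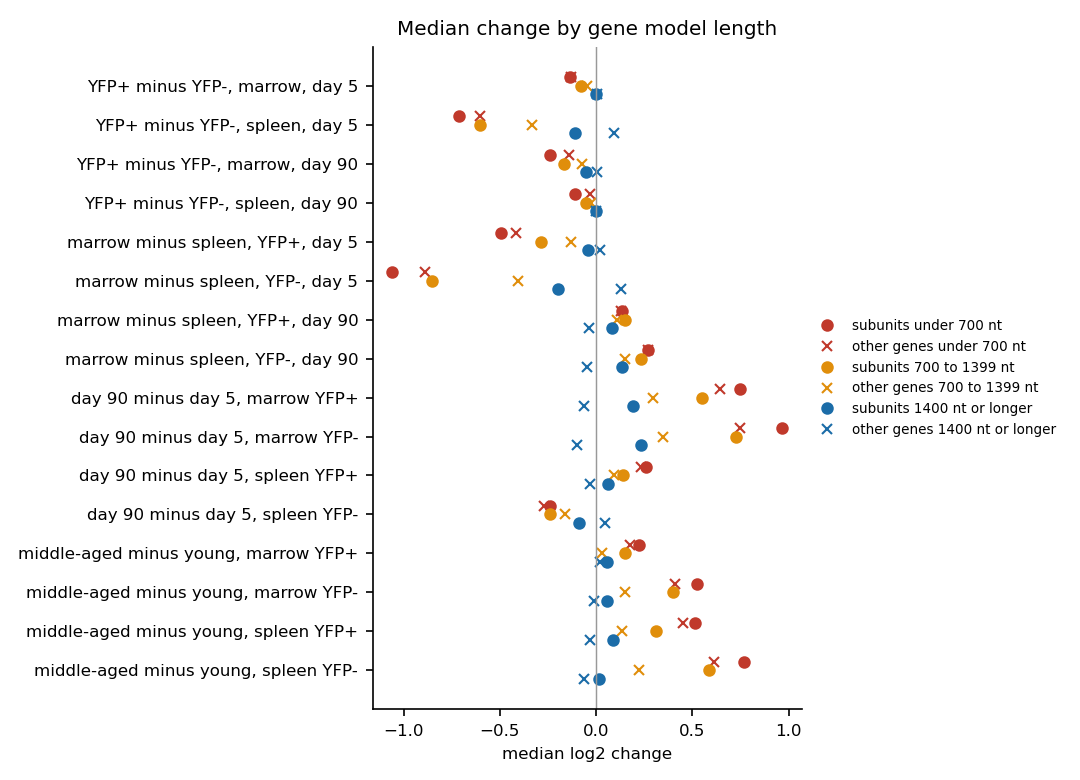
Median log2 change by gene model length in 16 comparisons, for the 79 subunit genes (circles) and all other genes tested (crosses); colours give the length class. Both sets run in the same order by length, except the subunits in marrow minus spleen YFP+ cells at day 90 and in day 90 minus day 5 spleen YFP- cells, for example -1.06, -0.85 and -0.20 for subunits and -0.89, -0.41 and 0.13 for other genes in marrow minus spleen YFP- cells at day 5.

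Members differed in how much they varied among libraries of 1 group, and this too ran with length. The SD of log2 CPM within groups had a median of 0.48 for 29 members under 700 nt (Cox6a2 left out), 0.41 for those between 700 and 1400 nt and 0.28 for those of 1400 nt or longer. Among the steadiest members was Uqcrc2 (0.19), a core protein of complex III. Cox6a2 had the highest value (0.77). The sum of the 79 genes ranged over all 43 libraries from 9739 to 23772 CPM, and that of other genes with models under 700 nt from 7595 to 29999 CPM. In the 3 libraries lowest in Sdc1 the 79 genes summed to 22503, 20875 and 23772 CPM and the other short genes to 29999, 24682 and 25437 CPM.

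**Figure D5:**
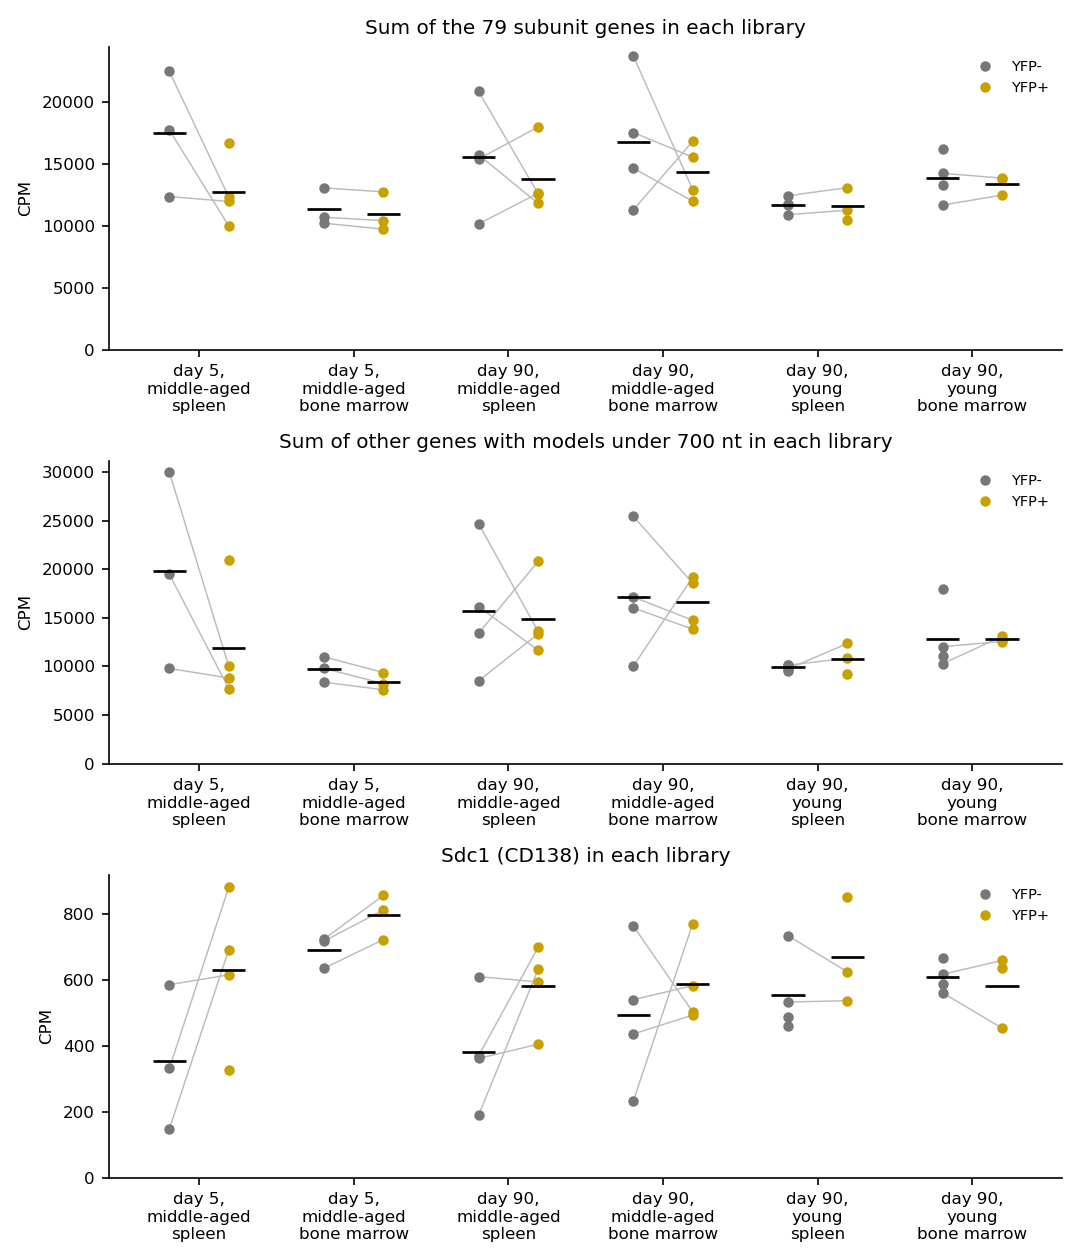
Summed level of the 79 genes, summed level of all other genes with models under 700 nt, and Sdc1, in CPM for each library; black bars are group means and grey lines join the YFP- and YFP+ libraries of 1 mouse. The 3 libraries with Sdc1 under 233 CPM, all YFP-, have the 3 highest scaled sums of the 79 genes (20875 to 23772 CPM).

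Other mitochondrial genes, from lists chosen by function, gave few calls. Of 16 measured genes of mitochondrial biogenesis and DNA maintenance, Myc fell in YFP+ marrow cells at day 90 (-1.11 ± 0.26, adjusted p = 0.0254), and it was the only call in the 21 comparisons. The coactivator Ppargc1a was nearly absent (0.0102 CPM). No call was made by edgeR among 45 assembly factors, 13 mitochondrially encoded mRNAs, 20 genes of the citric acid cycle and pyruvate dehydrogenase, 16 of electron carriers and fatty acid oxidation, 18 of import and chaperones and 78 mitochondrial ribosomal proteins. In YFP- marrow minus spleen at day 5, where the 79 subunits had a median of -0.93, import genes had -0.58, mitochondrial ribosomal proteins -0.51, mitochondrially encoded mRNAs -0.49 and assembly factors -0.23. The citric acid cycle genes had 0.32. In spleen at day 90, YFP+ minus YFP-, the mitochondrially encoded mRNAs had a median of -0.33 and the 79 subunits -0.05.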

How the data were processed

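The authors deposited 1 table of expected counts per gene for the 44 mRNA libraries, made with SMART-Seq v4 and Nextera XT per the labels' protocols. Its deposited name says that immunoglobulin genes were left out. Of its values 3.10% are not whole, and they were rounded. Versions in the submitters' processing notes are STAR 2.6.1b, RSEM 1.3.1 and, separately, DESeq2 1.26.0, beside builds GRCm39 and GRCm38 with no role for either. Gene lengths and positions are from GENCODE M21 (GRCm38), by gene identifier. The model of a gene is the longest of its transcripts with the best principal-isoform tag there, and levels per kb depend on that choice.

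The rounded counts went into edgeR 4.0.16 (R 4.3.3) with TMM factors. Genes were kept by filterByExpr (minimum count 10), which left 12457. A single robust quasi-likelihood model of 43 libraries had 1 mean per group, and p-values were adjusted by Benjamini-Hochberg in each of 21 contrasts. CPM are TMM-scaled. Alternatives were DESeq2 1.42.0, other size factors and filters, the compared groups alone, the mouse as a block, each age alone, each library left out and, chosen after seeing the data, the 3 libraries lowest in Sdc1 left out. The code was tested on simulated data. Depth was 6643295 to 12663103 counts per library.

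Replicates are separate mice, and libraries of 1 mouse (by the titles, where day-5 animals carry only a number that may be a date) pair the groups: deviations from group means had a median correlation of 0.181 over 57 same-mouse pairs and -0.0601 over 175 pairs between mice. The blocked fit gives no contrast between days or ages. Young YFP+ libraries are from F-prefixed mice. Young YFP- libraries and the middle-aged day-90 libraries of each group are from mice of both prefixes.

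The members, lists and naming rule were chosen with earlier results of these data known. The rule names each member that passed, fixed isoform families, the highest and lowest member per kb in each complex, and up to 4 called genes of each pathway list. Ndufa1 changes, Uqcrc2 and the marker genes were singled out after their values were seen. Single values of 1 of the 79 genes are left out of the text and are not reported here. Rows without a gene name hold 0.00428% of counts.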

Additional observations from a re-analysis of the deposited data

Results flagged for a closer look

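The YFP+ spleen library of middle-aged mouse M3 at day 90 lay far from the other 3 of its group. Its 79 genes summed to 18007 CPM, with 7406 CPM for complex I, 990 CPM for complex II and 1890 CPM for complex III, and Ndufa4 was at 204 CPM. The 3 other libraries had sums of 11823 to 12646 CPM. The erythroid list summed to 3472 CPM in it and Sdc1 was at 405 CPM, the lowest of its group. These 5 values are not independent, since they come from 1 library, and chance alone flags about 1 in 20 of the 56 groups of values examined.

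The YFP contrast of Cox6a2 in the spleen was positive in every middle-aged mouse at day 90 and negative in every mouse at day 5. The difference of 2.04 on the log2 scale did not pass (adjusted p = 0.520), and did with the mouse as a block.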

How the results depend on the processing

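With the mouse as a replicate block, calls among the 79 genes went from 0 to 13 in day-5 spleen YFP+ against YFP- cells, from 0 to 1 (Cox6a2) in day-90 YFP+ marrow against spleen, and from 0 to 1 (Cox6a2) in the difference of the spleen YFP contrast between days; it moved no other count of members by over 1.5 times. With the 3 libraries lowest in Sdc1 also left out, the last 2 stayed at 1 and the first was 0. The organ contrast of day-90 YFP+ cells also gave 1 call with the compared groups alone and with DESeq2. DESeq2 gave 1 call in the organ contrast of day-5 YFP+ cells and 9 in that of YFP- cells, where edgeR without a filter gave 1. The day-90 spleen YFP contrast gave 0 calls in middle-aged and 0 in young mice alone, and in middle-aged mice the Cox6a2 change in marrow turned to -0.85 (adjusted p = 0.718). Fewer libraries enter each of these; otherwise the cause was not tested.

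Leaving out 1 library at a time gave 0 to 34 calls in day-5 spleen YFP+ against YFP- cells, 0 to 55 in the organ contrast of day-5 YFP- cells, 0 to 1 in the day contrast of spleen YFP- cells and 0 to 1 in the difference of the spleen YFP contrast between days. Each upper end came without the day-5 spleen YFP- library of mouse 09-29. The age contrast of spleen YFP- cells ranged from 0 to 15, and the day-90 spleen YFP contrast from 1 to 2. Ndufa4 in day-5 marrow, near 0, ran from -0.12 to 0.051. The summed level of the 79 genes in young spleen moved to 12413 CPM (YFP-) and 13081 CPM (YFP+) with raw library totals. Under settings that left out no single library, 123 counts of members stayed within 1.5 times and 12 did not. Cox6a2, at 0.778 CPM in its lowest library, has the least depth of the genes tested in detail.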

Other observations

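The library in no group, from marrow of day-5 mouse 09-15, has a title used for YFP- cells and a cell type label used for YFP+ cells. Its 79 subunit genes summed to 16749 CPM, close to the 16685 CPM of the YFP+ spleen library of the same mouse. Cox6a2 was at 55.1 CPM in it, against 53.7 CPM in that spleen library and 0.778 to 19.4 CPM in the 6 other day-5 marrow libraries. Ndufa4 was at 216 CPM, Sdc1 at 529 CPM and other genes with models under 700 nt at a sum of 19927 CPM.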
